A study of Mus musculus with 22 samples.

Results

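The mouse zinc finger genes named Zfp800 to Zfp999 were examined in control and H2A.Z KD embryos. They are defined by symbol, as every gene of the expression table whose name is Zfp followed by 3 digits of which the first is 8 or 9, and 91 of the 55335 genes met this rule. Zinc finger proteins of this kind bind DNA through arrays of C2H2 fingers, in which cysteines and histidines hold a zinc ion. Many of them also carry a KRAB domain, which recruits the corepressor Trim28 (also called KAP1) and through it Setdb1, an enzyme that methylates histone H3 at lysine 9. KRAB zinc finger proteins are best known for silencing retroviruses and other transposable elements in early embryos and embryonic stem cells, and their genes lie in clusters that grew by gene duplication.

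RNA-seq had been performed on 22 libraries, each from a pool of 15 embryos, to ask how loss of the histone variant H2A.Z changes gene expression before implantation. All embryos came from B6D2F1 mice and were collected at 44 h (2-cell stage), 78 h (morula) or 94 h (blastocyst) after hCG injection. For the KD, an siRNA mix at 20 µM was injected into zygotes at the pronuclear stage, at about 10 pl each. The study names embryos without injection as controls of its qPCR, but what the control embryos of these libraries received is not stated in the sources used here, so an effect of injection itself and the effect of the siRNA cannot be told apart. Control groups held 4 libraries per stage, and there were 3 KD libraries of 2-cell embryos, 3 of morulae and 4 of blastocysts. Each library averages over a pool, so the p-values below measure the spread between pools and not between single embryos.

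Levels are FPKM, fragment counts scaled to transcript length and library size, as the authors deposited them. For tests, each library was scaled by a median-of-ratios factor, 1 was added, and log2 values were compared with limma over all genes that had at least 1 FPKM in at least 3 libraries of the comparison. A fold change is therefore on the log2(FPKM + 1) scale, and it understates the change of genes with low values. A gene was called, and is said to have risen or fallen, where the p-value adjusted over all genes tested (Benjamini-Hochberg) was below 0.05 and the absolute log2 fold change was above 1. Errors of fold changes are standard errors (SE), and intervals are 95% confidence intervals.

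H2afz, which encodes H2A.Z and was targeted by the siRNA mix, had 1244, 1236, 905 and 1178 FPKM in control 2-cell embryos and 415, 139 and 112 FPKM in KD 2-cell embryos. In morulae it had 1158, 1336, 1511 and 1421 FPKM in controls and 30.3, 25.7 and 29.0 FPKM after KD. In blastocysts the values were 2656, 2431, 1945 and 2055 FPKM in controls and 64.2, 67.2, 53.2 and 57.6 FPKM after KD. H2afv, the other gene of the variant, had 111, 118, 96.8 and 113 FPKM in control and 97.6, 85.4 and 83.7 FPKM in KD 2-cell embryos, 97.3, 113, 100.0 and 92.5 FPKM in control and 12.9, 11.01 and 9.90 FPKM in KD morulae, and 49.9, 62.0, 54.5 and 63.5 FPKM in control and 19.9, 16.9, 10.6 and 13.9 FPKM in KD blastocysts. For H2afz, every KD library lay below every control library of its stage, and at the 2-cell stage the KD library with replicate number 1 kept the highest level. Stage labels were checked with marker genes. The sum of 7 genes of the 2-cell stage (among them Zscan4c and Zfp352) had medians of 226.7 FPKM in control 2-cell embryos, 3.73 FPKM in control morulae and 0.840 FPKM in control blastocysts. The sum of 7 trophectoderm genes, led by Krt18 in morulae and blastocysts and by Tfap2c in 2-cell embryos, had medians of 10.8, 130.2 and 1156 FPKM in the same order. The sum of 6 genes of granulosa and cumulus cells, which surround the oocyte, was at most 0.162 FPKM in any library.

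Most members shared sequence features as well as a name, although the set is defined by symbol alone. Of the 91 genes, 90 were annotated as protein coding and 1, Zfp939, as a transcribed pseudogene. A KRAB A box was found in 70 of the 90 translated proteins (77.8%), against 279 of 21901 proteins of all genes (1.27%), with 1 residue of the pattern allowed to be missing. Arrays of 5 or more C2H2 fingers were found in 80 of 90 (88.9%), against 511 of all proteins (2.33%), and the number of fingers ran from 0 to 22 with a median of 11. No finger was matched in 4 proteins, those of Zfp839, Zfp935, Zfp957 and Zfp972. These features were not counted in the other genes named Zfp and a number, so the shares are not read as particular to the members.

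By position, 50 of the 91 members lay in 7 clusters, in which neighbours were less than 500 kb apart and at least 4 members followed each other. The largest held 16 members on chr4:145510759-147848366 (GRCm38, the build called mm10). Another held 11 members on chr17:21567008-22867134, among them Zfp942, Zfp944 and Zfp946. Smaller ones held 6 members on chr8:69209038-69791178, 5 on chr7:42579783-43618285 and 4 on chr17:32765496-33005457. The remaining ones held 4 members each, on chr2:175372436-175931100 and chr2:177464733-178078476.

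Near-identical copies limit what the values of some members mean. For each gene, the share of 100-base windows of its transcripts that also occur in transcripts of another gene was counted. The median share was 2.40%, no window was shared in 31 members, and over 50% were shared in 13 members. Zfp967 and Zfp969 shared all of their windows with other genes, Zfp965 shared 93.4% and Zfp973 shared 73.2%, mostly with each other, and Zfp960 shared 68.3% with Zfp97. Reads of such genes could have been split or moved between copies, and their values are uncertain. Exons of 19 members overlapped exons of another gene, in 1 case, Zfp935, over their whole length. Zfp973 overlapped another gene over 9.27% of its exonic bases, and Zfp934 overlapped Zfp935 over 0.434%.

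The set of members was expressed at every stage, and its summed level was highest at the 2-cell stage and lowest in blastocysts. The median of the summed FPKM of all 91 members was 1176 in control 2-cell embryos, 1134 in control morulae and 808.8 in control blastocysts. In KD embryos these medians were 1128, 979.2 and 688.3. As a share of all FPKM of a library, the medians were 0.261%, 0.192% and 0.118% in controls and 0.236%, 0.161% and 0.108% after KD, in the same order. These sums were not tested. In a bulk library, fewer cells of a type and less RNA per cell cannot be told apart, which holds for every level given here.

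Every member was detected in at least 1 library, but levels were very unequal. None was listed at 0 in all 22 libraries, 11 never reached 1 FPKM, and 41 had at least 1 FPKM in all libraries. Among the 76 members with a control mean of at least 1 FPKM at some stage, the highest control mean was found at the 2-cell stage for 30, in morulae for 18 and in blastocysts for 28. By the median over the 22 libraries of all stages, the most abundant member was Zfp978, with a median of 87.5 FPKM and a range from 60.5 to 121.8 FPKM, although 60.5% of its windows occur in other genes. It was followed by Zfp936, Zfp979 and Zfp985, with medians of 69.1, 62.5 and 58.8 FPKM. The other members among the 10 most abundant were Zfp958, Zfp932, Zfp961, Zfp977, Zfp960 and Zfp820, with medians from 35.9 FPKM for Zfp958 down to 20.98 FPKM for Zfp820. The order differed between stages. Zfp982, which is not among these 10, led in all 4 control 2-cell libraries, Zfp985 in 3 of 4 control morula libraries and Zfp978 in all 4 control blastocyst libraries. At the other end, Zfp831, Zfp811 and Zfp853 had medians of 0 FPKM, and Zfp853 never exceeded 0.0403 FPKM. These 3 names were picked once the values were known.

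**Figure D1:**
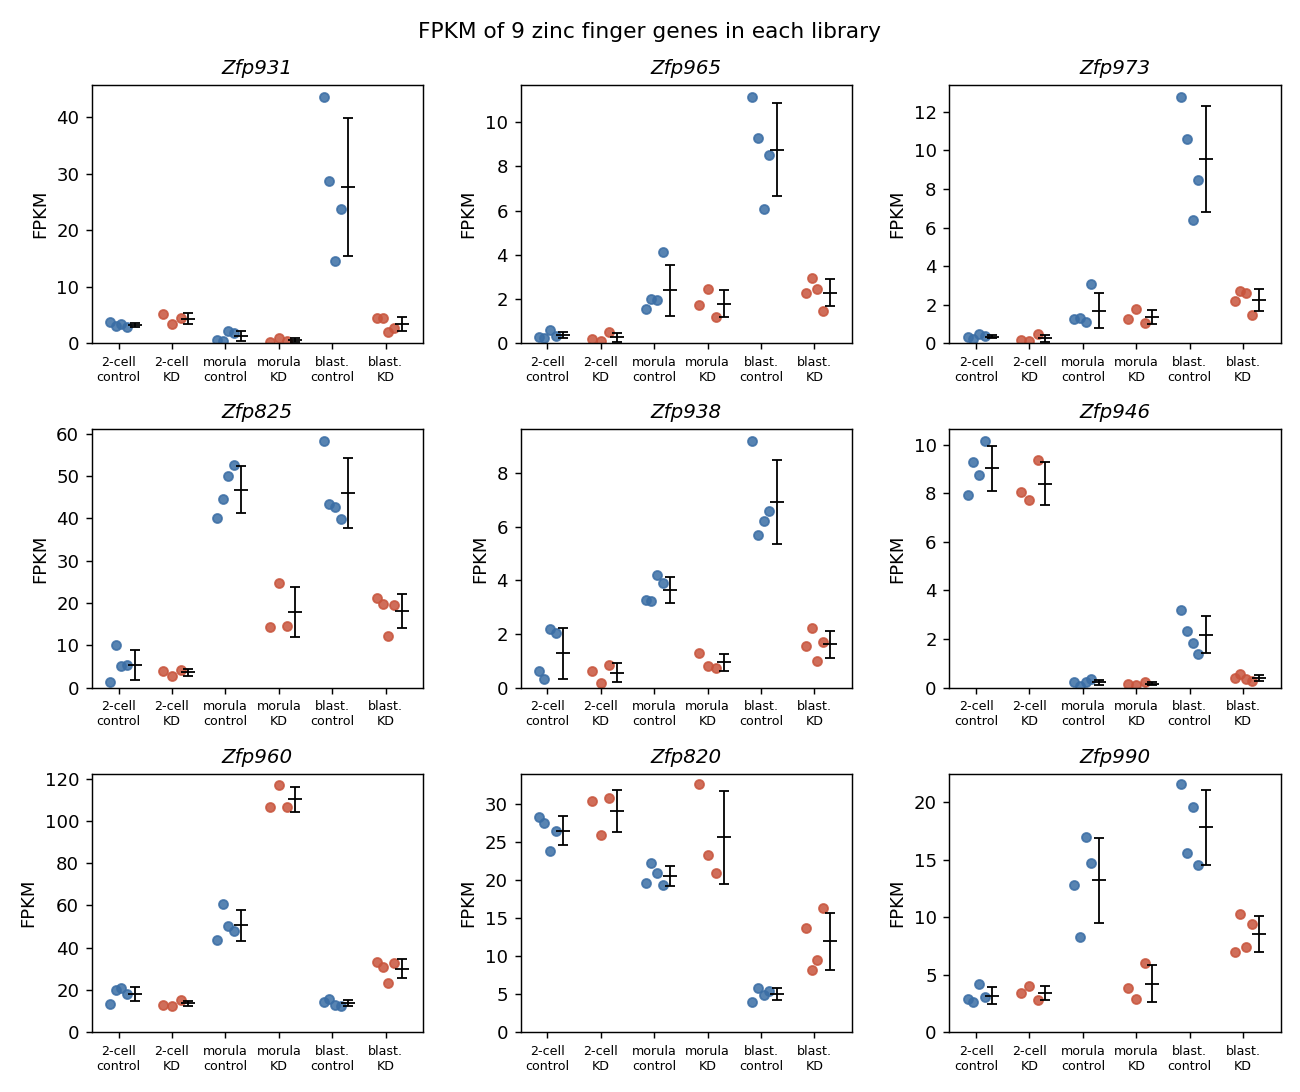
FPKM of 9 members in every library, with control libraries in blue, KD libraries in red and the mean ± SD of each group as a black mark beside the points. Zfp931, Zfp965 and Zfp973 reached their highest values in control blastocysts, and Zfp960 its highest, 117.4 FPKM, in a KD morula library.

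The passage from the 2-cell stage to the morula came with large changes in both directions. The lower members included Zfp957, Zfp982 and several genes of a cluster on chromosome 17 (Zfp942, Zfp943, Zfp944, Zfp946 and Zfp948), and the higher members included Zfp985, Zfp825, Zfp995 and the retroviral silencer Zfp809. Of the 91 members, 68 passed the filter on low values. Among these 68, 14 rose (20.6%, against 32.1% of the 13655 genes tested) and 11 fell (16.2%, against 30.1%). The median log2 fold change was -0.014 over the tested members and 0.097 over all genes. Of the tested members, 5 had no morula library and 8 no 2-cell library at 1 FPKM or more and so passed through a single stage. Among those called, Zfp957 and Zfp946 passed through the 2-cell stage only. Zfp995, Zfp970, Zfp971, Zfp965 and Zfp870 passed through the morula only.

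Zfp957 was expressed at the 2-cell stage and close to absent afterwards. Its control values were 9.90, 8.59, 13.8 and 8.07 FPKM in 2-cell embryos and 0.0536, 0.140, 0 and 0.0720 FPKM in morulae, with 1 morula library listed at 0. The log2 fold change was -3.32 ± 0.16 (SE; limma, adjusted p = 4.18e-09), and the interval was -3.68 to -2.96. Zfp957 passed the filter through the 2-cell libraries only, so the p-value adds nothing to these levels. Zfp982, in the large cluster of chromosome 4, had 157, 141, 137 and 133 FPKM in control 2-cell embryos and 14.6, 15.1, 15.9 and 13.7 FPKM in control morulae. No libraries of the 2 stages overlapped, and the log2 fold change was -3.18 ± 0.16 (SE; limma, adjusted p = 4.56e-09). Zfp982 then stayed near this lower level in blastocysts, at 13.2, 12.6, 14.3 and 11.01 FPKM.

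On chromosome 17, the cluster of 11 members had a summed level of 130.5 ± 13.2 FPKM (SD, n = 4) in control 2-cell embryos and 51.5 ± 1.95 FPKM (SD, n = 4) in control morulae. Of its 9 tested members, 5 fell (55.6%, against 30.1% of all genes tested) and 2 rose (22.2%, against 32.1%), and the median log2 fold change was -1.75. The other clusters differed from it, as 1 of 16 tested members on chromosome 4 fell (6.25%). None fell in the clusters on chromosomes 2, 7 and 8 or in the smaller one on chromosome 17. Zfp946 had 7.94, 9.30, 8.74 and 10.1 FPKM in control 2-cell embryos and 0.247, 0.0677, 0.208 and 0.335 FPKM in control morulae. All 2-cell libraries were far above all morula libraries, with a log2 fold change of -3.02 ± 0.15 (SE; limma, adjusted p = 3.92e-09). Zfp946 passed the filter through the 2-cell libraries only, so the p-value adds nothing to these levels. Zfp944 went from 23.2, 22.6, 22.4 and 27.5 FPKM to 3.06, 2.37, 2.87 and 3.38 FPKM, a log2 fold change of -2.67 ± 0.16 (SE; limma, adjusted p = 2.11e-08). Its 2-cell and morula libraries were again fully apart. Zfp948 went from 31.5, 37.5, 42.5 and 53.5 FPKM to 5.30, 5.49, 6.62 and 6.73 FPKM, a log2 fold change of -2.56 ± 0.19 (SE; limma, adjusted p = 8.95e-08). The decrease was again seen in every library. Zfp943 went from 9.06, 7.85, 10.6 and 11.6 FPKM to 1.13, 1.495, 1.39 and 1.20 FPKM, a log2 fold change of -2.20 (SE 0.16). Zfp942 went from 15.3, 16.3, 17.5 and 16.0 FPKM to 4.88, 3.20, 4.41 and 4.13 FPKM, a log2 fold change of -1.75 (SE 0.15). Zfp942 and Zfp943 lie head to head, with their starts close together on opposite strands.

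The same cluster held members that went the other way. Zfp995 had 0.437, 0.0775, 0.0507 and 0.0952 FPKM in control 2-cell embryos and 5.38, 6.94, 8.24 and 6.36 FPKM in control morulae. It was barely detected in any 2-cell library and present in every morula library, and the log2 fold change was 2.69 ± 0.19 (SE; limma, adjusted p = 6.36e-08). Zfp995 passed the filter through the morulae only, so the p-value adds nothing to these levels. Zfp947 had 1.504, 1.02, 1.82 and 2.29 FPKM and then 8.42, 10.3, 7.44 and 9.48 FPKM, a log2 fold change of 1.90 ± 0.19 (SE; limma, adjusted p = 1.22e-06). In control blastocysts Zfp995 had 5.84, 6.52, 5.94 and 6.15 FPKM, close to its morula values. Zfp947 had 11.5, 9.602, 9.27 and 8.80 FPKM there.

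Zfp985 on chromosome 4 rose between these stages. It had 11.5, 19.8, 12.2 and 11.8 FPKM in control 2-cell embryos and 104, 115, 154 and 145 FPKM in control morulae. The lowest morula library was far above the highest 2-cell library, and the log2 fold change was 3.14 ± 0.24 (SE; limma, adjusted p = 1.38e-07). Zfp825 had 1.32, 9.97, 4.99 and 5.39 FPKM in control 2-cell embryos, with 1 low library, and 40.0, 44.7, 49.9 and 52.5 FPKM in control morulae. Its libraries did not overlap between the stages, and the log2 fold change was 3.08 ± 0.37 (SE; limma, adjusted p = 8.02e-06). Zfp990, also on chromosome 4, had 2.88, 2.57, 4.20 and 3.00 FPKM and then 12.8, 8.26, 17.0 and 14.7 FPKM, a log2 fold change of 1.73 ± 0.22 (SE; limma, adjusted p = 1.22e-05). On chromosome 2, 2 genes that lie in the same cluster appeared at this step. Zfp970 had 0.190, 0.334, 0.366 and 0.296 FPKM and then 2.69, 3.20, 3.03 and 6.11 FPKM, a log2 fold change of 1.81 (SE 0.22). Zfp971 had 0.212, 0.458, 0.228 and 0.436 FPKM and then 2.77, 2.45, 3.39 and 3.60 FPKM, a log2 fold change of 1.57 (SE 0.16).

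Zfp809 recognises the primer binding site of murine leukemia virus and silences the integrated virus. It had 7.63, 5.29, 7.54 and 4.96 FPKM in control 2-cell embryos, 18.6, 22.6, 18.2 and 19.4 FPKM in control morulae and 11.6, 10.3, 16.2 and 16.1 FPKM in control blastocysts. All control morulae were above all controls of the other stages. From the 2-cell stage to the morula the log2 fold change was 1.498 ± 0.19 (SE; limma, adjusted p = 1.02e-05). Zfp932, which binds endogenous retroviral sequences, had 34.1, 28.9, 23.4 and 28.6 FPKM in control 2-cell embryos and 57.9, 85.7, 76.9 and 59.0 FPKM in control morulae, a log2 fold change of 1.24 ± 0.21 (SE; limma, adjusted p = 0.000172). Zfp819, a repressor of transposable elements, stayed low, with 1.13, 1.40, 3.32 and 1.501 FPKM and 1.01, 1.09, 0.850 and 0.992 FPKM, and was not called (log2 fold change -0.45).

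Other members were called between these stages as well. Zfp939, the pseudogene, had 22.6, 21.6, 30.1 and 25.6 FPKM in control 2-cell embryos and 8.16, 7.01, 9.30 and 9.96 FPKM in control morulae, a log2 fold change of -1.44. It fell again by the blastocyst stage. Zfp867, Zfp810 and Zfp830 fell, with log2 fold changes of -1.23, -1.14 and -1.02. Zfp960, Zfp965, Zfp870, Zfp934 and Zfp938 rose with log2 fold changes between 1.12 for Zfp938 and 1.44 for Zfp960. Zfp867, Zfp810, Zfp830, Zfp870 and Zfp934 were picked for naming once their values were known. The calls of Zfp830, Zfp934 and Zfp938 were lost with single libraries left out. Without the 2-cell control library 4 or the morula control library 1 or 7, Zfp830 had log2 fold changes of -0.95, -0.93 and -0.91. Zfp934 had 0.97 without the 2-cell control library 2. Zfp938 had 0.99 and 0.89 without the 2-cell control libraries 1 and 2. With a pseudocount of 0.1 in place of 1, the log2 fold changes of Zfp957, Zfp946, Zfp995, Zfp970 and Zfp971 were -5.95, -4.93, 4.84, 3.21 and 2.88.

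**Figure D2:**
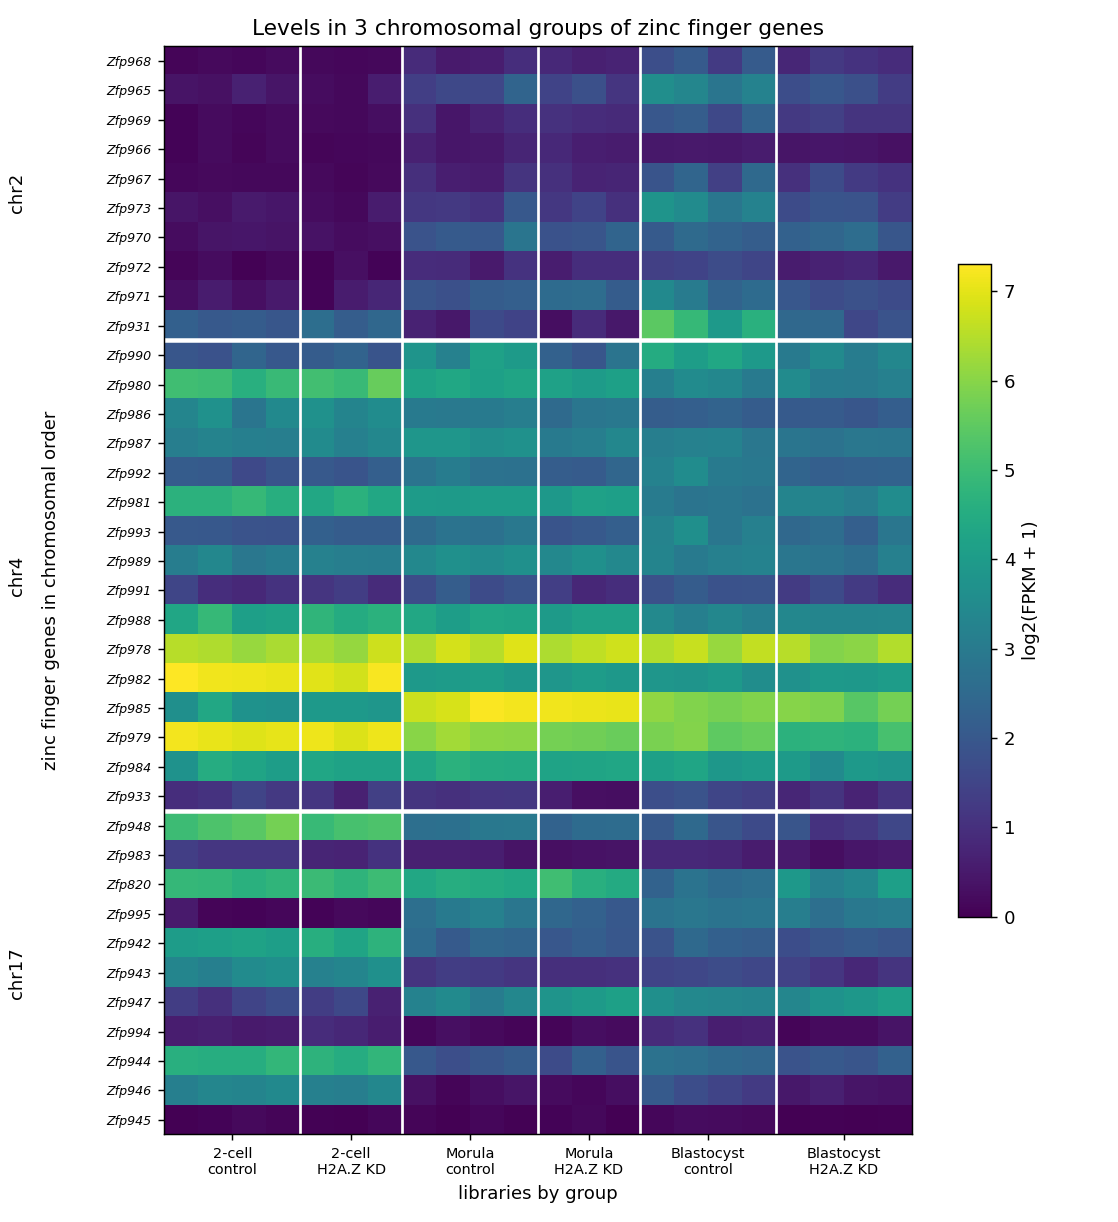
Levels, as log2(FPKM + 1) in colour, of the members in 3 groups on chromosomes 2, 4 and 17, with genes in chromosomal order and every library as a column. The summed level of the chromosome 17 cluster goes from 130.5 FPKM in control 2-cell embryos to 51.5 FPKM in control morulae, and that of the chromosome 2 span reaches 67.6 FPKM in control blastocysts.

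Between the morula and the blastocyst fewer members were called, and more of them fell than rose. Those that fell included abundant members such as Zfp936, Zfp932, Zfp960 and Zfp820, and 5 of the 6 that rose lie within 3 Mb of chromosome 2. Of 71 tested members, 6 rose (8.45%, against 13.4% of the 11849 genes tested) and 13 fell (18.3%, against 12.9%). The control morulae are the same libraries as in the step before, so the values of each step are given side by side. The median log2 fold change was -0.0046 over the tested members and -0.025 over all genes, and with FPKM as deposited, without a factor per library, both turned positive, to 0.063 and 0.044. In this comparison 4 tested members had no morula library at 1 FPKM or more, and of these Zfp946 alone was called.

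Zfp931, on chromosome 2, had 0.609, 0.391, 2.12 and 1.79 FPKM in control morulae and 43.6, 28.8, 14.5 and 23.8 FPKM in control blastocysts. Every blastocyst library was far above every morula library. The log2 fold change was 3.59 ± 0.37 (SE; limma, adjusted p = 8.23e-06), with an interval of 2.78 to 4.39. Zfp973 had 1.27, 1.32, 1.11 and 3.05 FPKM in control morulae and 12.8, 10.6, 6.37 and 8.49 FPKM in control blastocysts, a log2 fold change of 1.91 ± 0.28 (SE; limma, adjusted p = 0.000117). Zfp965 had 1.55, 1.98, 1.94 and 4.11 FPKM and 11.1, 9.30, 6.09 and 8.52 FPKM, a log2 fold change of 1.47 ± 0.27 (SE; limma, adjusted p = 0.00063). For Zfp965 and Zfp973 the morula library 8 was the highest of its group, and the blastocyst libraries were all higher still. Zfp967 had 0.978, 0.542, 0.458 and 1.14 FPKM and 2.73, 4.22, 1.63 and 4.67 FPKM, a log2 fold change of 1.17 (SE 0.24). Zfp969 had 1.01, 0.353, 0.628 and 0.948 FPKM and 2.94, 3.48, 1.99 and 3.99 FPKM, a log2 fold change of 1.18 (SE 0.19). These genes share all their windows with others, so the values of either are uncertain.

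Zfp946, on chromosome 17, rose again after its decrease at the morula stage. It had 0.247, 0.0677, 0.208 and 0.335 FPKM in control morulae and 3.18, 2.32, 1.84 and 1.37 FPKM in control blastocysts. All blastocyst libraries were above all morula libraries, although below the 2-cell level, and the log2 fold change was 1.32 ± 0.19 (SE; limma, adjusted p = 0.000122). With a pseudocount of 0.1 it was 2.80. Zfp946 passed the filter through the blastocysts only, so the p-value adds nothing to these levels.

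Among the members that fell, Zfp821 had 11.99, 9.33, 7.0 and 8.46 FPKM in control morulae and 1.06, 1.08, 1.70 and 1.86 FPKM in control blastocysts. The groups were apart, and the log2 fold change was -2.12 ± 0.17 (SE; limma, adjusted p = 1.47e-06). Zfp820 went from 19.7, 22.3, 20.9 and 19.4 FPKM to 3.91, 5.83, 4.85 and 5.35 FPKM, a log2 fold change of -1.94 ± 0.15 (SE; limma, adjusted p = 1.02e-06). Zfp960 went from 43.4, 60.7, 50.2 and 47.9 FPKM to 13.9, 15.7, 12.7 and 12.5 FPKM, a log2 fold change of -1.89 ± 0.17 (SE; limma, adjusted p = 3.66e-06). For these 3 genes, no control blastocyst library reached any control morula library. Zfp932, the binder of endogenous retroviruses, went from 57.9, 85.7, 76.9 and 59.0 FPKM back to 27.6, 23.0, 24.2 and 24.6 FPKM, a log2 fold change of -1.52 ± 0.19 (SE; limma, adjusted p = 3.17e-05). Zfp809 moved in the same direction without passing the fold limit (log2 fold change -0.61, SE 0.18).

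Zfp939 reached 1.94, 2.25, 2.12 and 2.32 FPKM in control blastocysts, a log2 fold change of -1.66 (SE 0.16). Zfp873 went from 8.95, 14.9, 14.2 and 12.6 FPKM to 4.32, 6.05, 3.19 and 4.12 FPKM, a log2 fold change of -1.41 (SE 0.23). Both decreases were seen in every library. Zfp977 went from 31.2, 43.0, 41.8 and 44.2 FPKM to 21.6, 17.2, 12.6 and 16.1 FPKM, a log2 fold change of -1.29 (SE 0.22). Zfp936 went from 50.2, 138, 80.4 and 90.9 FPKM to 44.9, 26.8, 33.0 and 37.8 FPKM, a log2 fold change of -1.33 (SE 0.31). In Zfp936 the morula libraries spread widely, and after scaling of the libraries the groups overlapped. Zfp981, Zfp961, Zfp985, Zfp980 and Zfp988 also fell, with log2 fold changes between -1.23 for Zfp981 and -1.06 for Zfp988, and of these Zfp981, Zfp980 and Zfp988 were named after their values were seen. In Zfp961, the blastocyst control library 1 was low at 5.83 FPKM beside 5.83, 21.2, 18.6 and 16.3 FPKM in its group as a whole, and without this library the log2 fold change was -0.87. The calls of Zfp980 and Zfp988 were lost without the blastocyst control library 6 for Zfp980 (-0.95) and library 4 for Zfp988 (-0.99). With FPKM as deposited, both were at -0.98.

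At the 2-cell stage no member met the thresholds after KD, and neither did any other gene. None of the 60 tested members was called in either direction by limma, and none of all 12160 genes tested was called (0%). These counts come from the fit without a term for replicate numbers. At an unadjusted p below 0.05 there were 2 members and 701 genes. The median log2 fold change was -0.012 over the tested members and 0.0035 over all genes. H2afz itself, although low in every KD library, was not called at this stage (-2.53 ± 0.38, SE; limma, adjusted p = 0.543).

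The 2 members with a low unadjusted p were Zfp942 and Zfp869, the latter named after its values were seen. Zfp942 had 15.3, 16.3, 17.5 and 16.0 FPKM in control and 22.8, 18.1 and 25.2 FPKM in KD 2-cell embryos. All KD libraries were above all controls, but the difference did not pass the adjustment (log2 fold change 0.47 ± 0.17 (SE; limma, adjusted p = 0.828)). Zfp869 had 5.73, 7.90, 10.6 and 12.2 FPKM in controls and 4.54, 6.64 and 5.34 FPKM after KD, with overlapping groups and a log2 fold change of -0.54 ± 0.23 (SE; limma, adjusted p = 0.828). For the abundant 2-cell members the estimates were small. Zfp982 had 125, 111 and 151 FPKM after KD (log2 fold change -0.08, interval -0.46 to 0.30). Zfp979 had 143, 132, 124 and 130.3 FPKM in controls and 137, 119.5 and 139 FPKM after KD (log2 fold change 0.061, interval -0.28 to 0.40).

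In morulae, 5 members passed the thresholds after KD. Zfp960 rose to more than 100 FPKM in each KD library, and Zfp990, Zfp825, Zfp938 and Zfp977 fell. Of 59 tested members, 1 rose (1.69%, against 0.992% of the 10989 genes tested) and 4 fell (6.78%, against 2.53%). On scaled values, control and KD libraries were fully apart for 22 members (37.3%, against 28.2% of all genes). The median log2 fold change was -0.15 over the tested members, of which 42 were below 0, and 0.015 over all genes. With FPKM as deposited, the median of all genes moved to -0.085, a shift of -0.10, and that of the members to -0.25, with 48 of 59 below 0. This scaling also changed the balance of calls over all genes from 109 higher and 278 lower (28.2% higher) to 71 higher and 424 lower (14.3% higher). Of the tested members 3 (Zfp933, Zfp937 and Zfp975) had no KD library at 1 FPKM or more and passed the filter through controls.

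Zfp960, on chromosome 17, had 43.4, 60.7, 50.2 and 47.9 FPKM in control and 107, 117 and 107 FPKM in KD morulae. The KD libraries lay close together and all far above the controls. The log2 fold change was 1.24 ± 0.17 (SE; limma, adjusted p = 0.00293), with an interval of 0.87 to 1.62, and the value is uncertain because most of its windows also occur in Zfp97. Zfp947 was also higher in all KD libraries, with 8.42, 10.3, 7.44 and 9.48 FPKM in controls and 12.8, 14.8 and 16.6 FPKM after KD, but did not pass the fold limit (log2 fold change 0.78 ± 0.18 (SE; limma, adjusted p = 0.0210)).

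Zfp990 had 12.8, 8.26, 17.0 and 14.7 FPKM in control and 3.80, 2.84 and 5.99 FPKM in KD morulae. The highest KD library was below the lowest control, and the log2 fold change was -1.34 ± 0.28 (SE; limma, adjusted p = 0.0132). The call was lost without KD library 1 (log2 fold change -1.27, limma, adjusted p = 0.0554) or KD library 2 (-1.14, adjusted p = 0.0601). Zfp825 had 40.0, 44.7, 49.9 and 52.5 FPKM in control and 14.2, 24.7 and 14.6 FPKM in KD morulae, a log2 fold change of -1.26 ± 0.22 (SE; limma, adjusted p = 0.00794). Its KD libraries were all well below the controls, with library 2 the highest of them. Zfp938 had 3.26, 3.22, 4.19 and 3.89 FPKM in controls and 1.31, 0.820 and 0.722 FPKM after KD, a log2 fold change of -1.18 ± 0.18 (SE; limma, adjusted p = 0.00436). Its KD libraries were at about the lower limit of the filter.

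Zfp977, which lies on chromosome 7, had 31.2, 43.0, 41.8 and 44.2 FPKM in control and 19.1, 21.3 and 13.1 FPKM in KD morulae. The groups did not overlap, and the log2 fold change of -1.02 ± 0.22 (SE; limma, adjusted p = 0.0146) was just past the limit. It fell short of the fold limit without control library 2, 7 or 8 (-0.98, -0.98 and -0.94) or without KD library 6 (-0.85). With no filter on low values, which brings all 55335 genes into the adjustment, the adjusted p-values (limma) were 0.0651 for Zfp825, 0.0965 for Zfp990 and 0.0894 for Zfp977, and these calls were lost. With replicate numbers as a block in the fit, Zfp938, Zfp825 and Zfp977 were at -0.93, -0.97 and -0.67, short of the fold limit, and Zfp960 alone was called under every setting. Zfp959 came close, with 4.61, 3.47, 3.60 and 3.58 FPKM in controls, 0.976, 0.950 and 2.11 FPKM after KD and a log2 fold change of -0.97 ± 0.20 (SE; limma, adjusted p = 0.0130).

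Sums of marker genes were also compared between the morula groups. The sum of Pou5f1, Nanog, Sox2 and Klf4 was 127, 138, 142 and 171 FPKM in controls and 46.4, 39.5 and 54.8 FPKM after KD, with 3 of the 4 genes at 1 FPKM or more in all libraries and none at 0 in every library of a group. Most of this difference lay in Nanog, with 62.9, 103, 113 and 143 FPKM in controls and 17.9, 11.6 and 32.5 FPKM after KD. Pou5f1 had 55.3, 27.3, 23.7 and 21.5 FPKM and 21.3, 19.8 and 16.3 FPKM, and was above Nanog in KD libraries 1 and 2. Klf4 overlapped, with 8.34, 7.38, 5.49 and 5.95 FPKM and 7.15, 8.09 and 5.76 FPKM, and Sox2 was below 1 FPKM in all of these libraries. The sum of the 7 genes of the 2-cell stage was 3.06, 1.64, 6.53 and 4.40 FPKM in controls and 10.5, 8.13 and 6.56 FPKM after KD, led by Tdpoz4 in the means of both groups, with none of the 7 genes at 1 FPKM or more in all control libraries, 2 of 7 in all KD libraries and none at 0 in every library of a group. The 7 trophectoderm genes summed to 130.5, 108.6, 129.9 and 146.5 FPKM in controls and 95.55, 83.86 and 117.0 FPKM after KD, with overlap. Among them Gata3 had 22.73, 16.48, 16.62 and 20.85 FPKM in controls and 10.38, 9.884 and 14.3 FPKM after KD. Tfap2c had 24.64, 15.47, 15.0 and 15.07 FPKM and 13.92, 14.29 and 13.06 FPKM. Both were apart in FPKM as deposited, Tfap2c narrowly and not after scaling of the libraries, and the others of this list overlapped. The part of these markers in the results on the members was not tested.

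In KD blastocysts more members were called than in KD morulae, as were more of all genes tested, and most of the called members fell. Zfp931, Zfp973 and Zfp965, all of chromosome 2, showed large decreases, and Zfp938 and Zfp825 were again lower, as in morulae. Zfp820 and Zfp960 rose. Of 72 tested members, 2 rose (2.78%, against 6.06% of the 11828 genes tested) and 10 fell (13.9%, against 7.69%). On scaled values, the groups were fully apart for 33 members (45.8%, against 35.5% of all genes). The median log2 fold change was -0.28 over the tested members, of which 50 were below 0, and 0.0047 over all genes, and 50 of 72 were also below 0 with FPKM as deposited. The number of members at 1 FPKM or more was 68 to 73 in control and 60 to 62 in KD blastocysts. Over all genes it was 10550 to 11220 in control and 10790 to 11500 in KD blastocysts. In morulae it was 58 to 62 members in controls and 48 to 54 after KD, and 10410 to 11170 and 10140 to 10490 over all genes. Of the tested members 4 (Zfp946, Zfp972, Zfp937 and Zfp867) had no KD library at 1 FPKM or more, so they passed the filter through the controls. Among these 4, Zfp946 alone was called.

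Zfp931 had 43.6, 28.8, 14.5 and 23.8 FPKM in control and 4.50, 4.49, 1.97 and 2.63 FPKM in KD blastocysts. The highest KD library was below the lowest control by a wide margin. The log2 fold change was -2.64 ± 0.35 (SE; limma, adjusted p = 0.000165), with an interval of -3.39 to -1.89. Zfp973 had 12.8, 10.6, 6.37 and 8.49 FPKM in controls and 2.19, 2.73, 2.62 and 1.44 FPKM after KD, a log2 fold change of -1.67 ± 0.24 (SE; limma, adjusted p = 0.000329). Zfp965 had 11.1, 9.30, 6.09 and 8.52 FPKM in controls and 2.28, 2.94, 2.47 and 1.45 FPKM after KD, a log2 fold change of -1.56 ± 0.23 (SE; limma, adjusted p = 0.000398). The groups were apart for both, but the genes are near-identical, and how their reads were divided is uncertain. Zfp971 had 10.1, 7.18, 3.999 and 4.88 FPKM in controls and 2.99, 2.24, 2.54 and 2.17 FPKM after KD, a log2 fold change of -1.04 ± 0.26 (SE; limma, adjusted p = 0.00886). Without the control library 1 or the KD library 6 its log2 fold change was -0.80 or -0.99, short of the limit.

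Zfp938 had 9.20, 5.69, 6.21 and 6.60 FPKM in control and 1.54, 2.21, 1.00 and 1.69 FPKM in KD blastocysts. Every KD library was below every control, and the log2 fold change was -1.59 ± 0.23 (SE; limma, adjusted p = 0.000285). Zfp825 had 58.2, 43.4, 42.7 and 39.9 FPKM in controls and 21.3, 19.7, 12.2 and 19.5 FPKM after KD, a log2 fold change of -1.30 ± 0.24 (SE; limma, adjusted p = 0.00143). Zfp959 had 4.09, 6.85, 5.19 and 5.00 FPKM in controls and 2.51, 1.73, 1.02 and 1.59 FPKM after KD, a log2 fold change of -1.20 ± 0.21 (SE; limma, adjusted p = 0.00111). The groups were apart for each of these genes in blastocysts, as they were in morulae.

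Zfp946 had 3.18, 2.32, 1.84 and 1.37 FPKM in control and 0.389, 0.564, 0.344 and 0.275 FPKM in KD blastocysts. No KD library reached 1 FPKM. The log2 fold change was -1.15 ± 0.20 (SE; limma, adjusted p = 0.00109), with -2.17 at a pseudocount of 0.1 and -0.98 without the control library 1, which had the highest level. Zfp946 passed the filter through the controls only, so the p-value adds nothing to these levels. Zfp975, on chromosome 7, had 2.27, 2.17, 3.85 and 3.28 FPKM in controls and 1.02, 0.621, 0.690 and 0.581 FPKM after KD, a log2 fold change of -1.14 ± 0.18 (SE; limma, adjusted p = 0.000489), and -1.83 at a pseudocount of 0.1. Zfp934, named after its values were seen, had 20.9, 19.6, 18.1 and 15.8 FPKM in controls and 13.7, 10.3, 10.7 and 2.60 FPKM after KD, a log2 fold change of -1.08 ± 0.37 (SE; limma, adjusted p = 0.0349). The KD library 6 was far below the others, and without it the log2 fold change was -0.63. The call was also lost without the control library 1 or 4 or the KD library 5, with log2 fold changes of -0.98, -1.08 and -1.15 (limma, adjusted p = 0.0819, 0.0689 and 0.0558). With no filter, the calls of Zfp934 and Zfp971 were lost (limma, adjusted p = 0.170 and 0.0581).

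Both members that rose had fallen from the control morula to the control blastocyst, a comparison that uses the same control blastocysts. Zfp820 had 3.91, 5.83, 4.85 and 5.35 FPKM in control and 13.8, 8.15, 9.52 and 16.3 FPKM in KD blastocysts. All KD libraries were above all controls, and the log2 fold change was 1.08 ± 0.22 (SE; limma, adjusted p = 0.00268). Zfp960 had 13.9, 15.7, 12.7 and 12.5 FPKM in controls and 33.3, 30.7, 23.4 and 32.5 FPKM after KD, a log2 fold change of 1.07 ± 0.19 (SE; limma, adjusted p = 0.00123). These increases were close to the fold limit. Without the KD library 1 neither passed it (0.98 for Zfp820 and 0.99 for Zfp960), without the KD library 6 Zfp820 did not (0.93), and without the KD library 5 there were 4 members called higher.

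Several named members passed the adjusted p but not the fold limit in blastocysts. Zfp979, one of the most abundant, had 56.3, 61.0, 44.3 and 47.8 FPKM in control and 24.9, 26.1, 25.1 and 35.5 FPKM in KD blastocysts, with a log2 fold change of -0.88 ± 0.19 (SE; limma, adjusted p = 0.00355). Zfp990 had 21.6, 15.6, 19.6 and 14.6 FPKM in controls and 6.99, 10.3, 7.41 and 9.39 FPKM after KD, with a log2 fold change of -0.97 ± 0.21 (SE; limma, adjusted p = 0.00337). In both, every KD library was below every control. In the opposite direction, Zfp821 had 1.06, 1.08, 1.70 and 1.86 FPKM in controls and 2.49, 2.56, 3.74 and 3.19 FPKM after KD, with a log2 fold change of 0.72 ± 0.17 (SE; limma, adjusted p = 0.00514) and no overlap. Zfp939 and Zfp936 had log2 fold changes of 0.46 and 0.89 (limma, adjusted p = 0.0395 and 0.0456), and the groups of Zfp936 overlapped. The silencers Zfp809, Zfp932 and Zfp819 were not called, with log2 fold changes of 0.25 (-0.18 to 0.68), 0.36 (-0.05 to 0.77) and 0.36 (-0.11 to 0.83), intervals in parentheses.

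Of the marker sums in blastocysts, those of the trophectoderm and the 2-cell stage separated the groups, and those of the inner cell mass and the primitive endoderm overlapped. The 7 trophectoderm genes summed to 999, 1477, 1312 and 990.1 FPKM in control and 584, 741, 784 and 604 FPKM in KD blastocysts, with Krt18 the most abundant, 5 of 7 genes at 1 FPKM or more in all control libraries and 6 of 7 in all KD libraries, and none at 0 in every library of a group. Krt18 had 730.2, 992, 827 and 646 FPKM in controls and 369, 461, 399 and 329 FPKM after KD. Elf5 was lower as well, with 2.12, 2.20, 1.47 and 0.841 FPKM in controls and 0.0300, 0.0991, 0.186 and 0.103 FPKM after KD, while Krt8, Gata3 and Eomes overlapped. Tfap2c went the other way, with 3.20, 6.497, 8.36 and 8.26 FPKM in controls and 12.6, 10.6, 18.4 and 11.4 FPKM after KD, and Cdx2 overlapped, with 0.863, 1.56, 2.66 and 2.07 FPKM and 1.11, 1.16, 3.07 and 2.23 FPKM. The 7 genes of the 2-cell stage summed to 0.998, 0.965, 0.322 and 0.716 FPKM in controls and 3.25, 15.2, 3.67 and 11.2 FPKM after KD, led in the means of both groups by Zfp352, which is not a member, with none of 7 genes at 1 FPKM or more in all control libraries, 1 of 7 in all KD libraries and none at 0 in every library of a group. The 4 genes of the inner cell mass summed to 114, 136, 223 and 136 FPKM in controls and 140.3, 156, 286 and 201 FPKM after KD, led by Nanog, with all 4 genes at 1 FPKM or more in all control libraries, 3 of 4 in all KD libraries and none at 0 in every library of a group. The 4 genes of the primitive endoderm summed to 10.2, 11.1, 10.2 and 20.3 FPKM in controls and 12.4, 10.2, 37.1 and 20.2 FPKM after KD, led by Gata6, with 1 of 4 genes at 1 FPKM or more in all libraries of each group and none at 0 in every library of a group. Their part in the differences of the members was not tested.

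**Figure D3:**
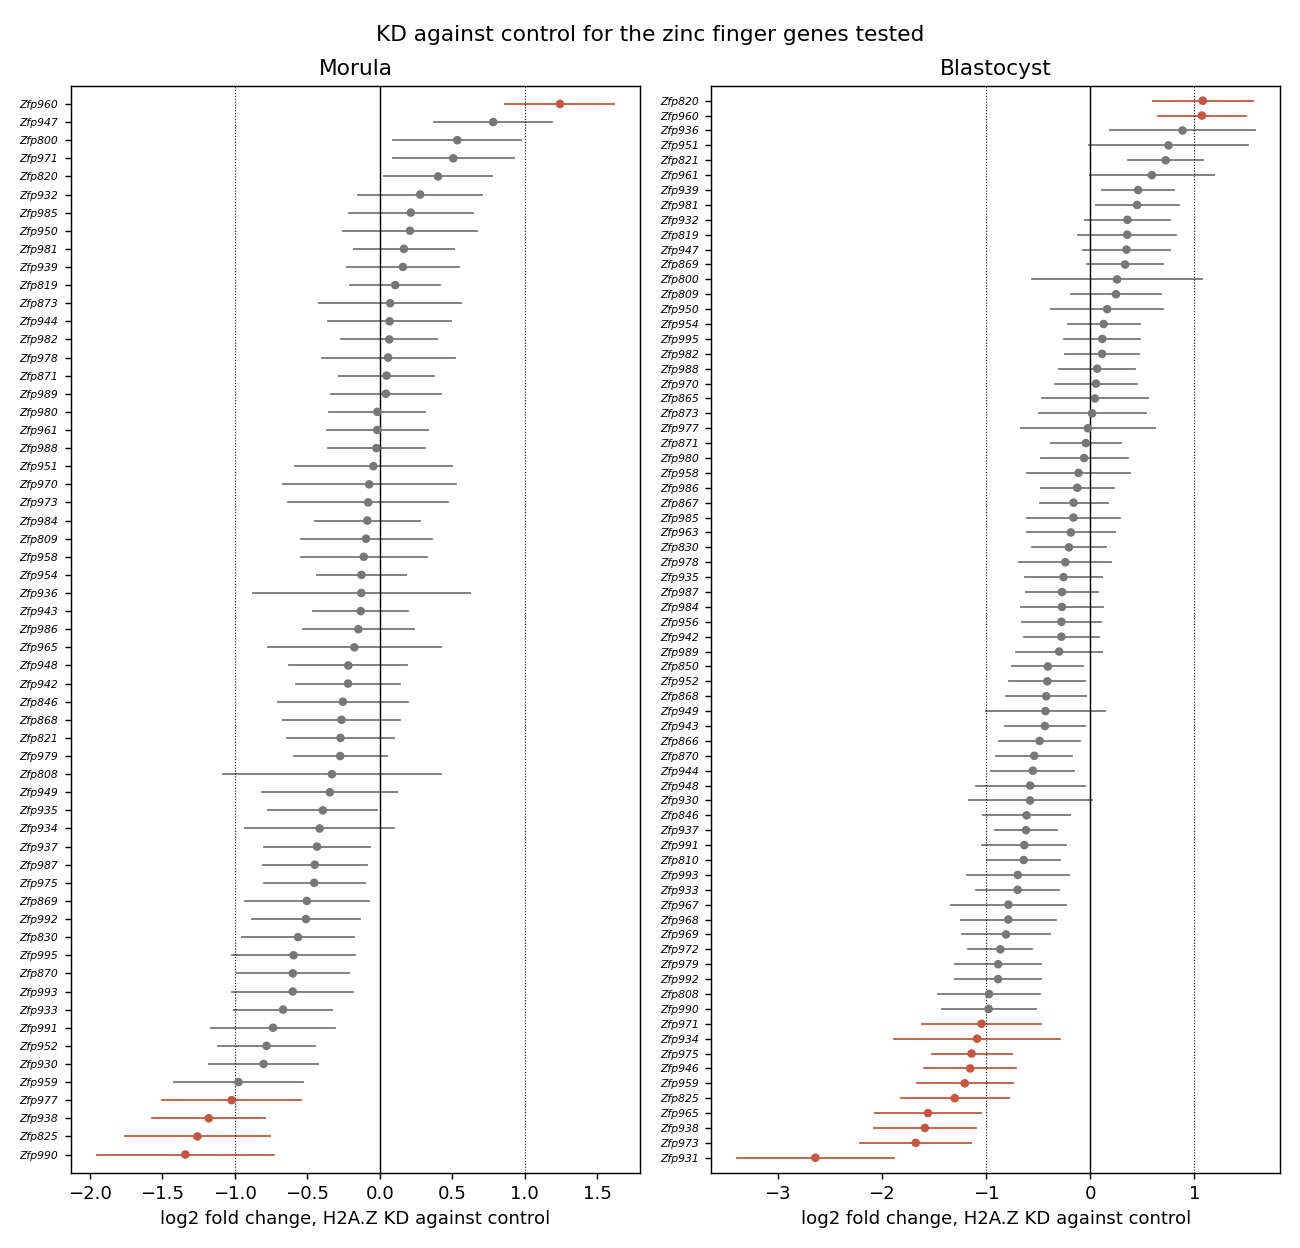
Log2 fold change of KD against control for all tested members in morulae and in blastocysts, with 95% confidence intervals as lines, members past both thresholds in red and a log2 fold change of 1 in either direction as dotted lines. Zfp960 was at 1.24 in morulae and 1.07 in blastocysts, and Zfp931 was at -2.64 in blastocysts.

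Of the 9 tested members within 3 Mb of chromosome 2, 8 had estimates below 0 in KD blastocysts. This span, chr2:175372436-178078476, holds 10 members (both clusters of that chromosome with Zfp967 and Zfp973 between them) and was chosen after the values were seen, so it is given without a test. Their summed level was 5.16 ± 0.197 FPKM (SD, n = 4) in control 2-cell embryos, 15.7 ± 5.27 FPKM (SD, n = 4) in control morulae and 67.6 ± 20.1 FPKM (SD, n = 4) in control blastocysts. After KD it was 6.10 ± 1.08 FPKM (SD, n = 3), 15.0 ± 1.46 FPKM (SD, n = 3) and 19.1 ± 3.48 FPKM (SD, n = 4). KD blastocysts ranged from 14.4 to 22.8 FPKM and control blastocysts from 42.6 to 90.7 FPKM. Of the 9 tested members of the span, 5 rose from the control morula to the control blastocyst (55.6%, against 13.4% of all genes tested), and 4 fell after KD in blastocysts (44.4%, against 7.69%). The same control blastocysts enter both comparisons, so the values are given side by side and their relation was not tested. Zfp965, Zfp973, Zfp967 and Zfp969, all among those that rose, share most or all of their windows with other genes. Zfp965 and Zfp973 are also among those that fell. Reads can move between such copies, so these are not separate measurements. The median log2 fold change of the 9 members was 1.17 in development and -0.86 after KD.

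Other members of the span were lower as well without being called. Zfp969 had 2.94, 3.48, 1.99 and 3.99 FPKM in control and 1.33, 1.59, 1.12 and 1.13 FPKM in KD blastocysts, with a log2 fold change of -0.81 ± 0.20 (SE; limma, adjusted p = 0.00700). Zfp967 had 2.73, 4.22, 1.63 and 4.67 FPKM in controls and 1.01, 2.19, 1.37 and 1.11 FPKM after KD, with a log2 fold change of -0.78 ± 0.25 (SE; limma, adjusted p = 0.0289). Zfp972, named after its values were seen, had 1.59, 1.77, 2.24 and 1.88 FPKM in controls and 0.482, 0.634, 0.729 and 0.421 FPKM after KD, with a log2 fold change of -0.86 ± 0.14 (SE; limma, adjusted p = 0.000713). Zfp972 passed the filter through the controls only, so the p-value adds nothing to these levels. Zfp970 differed from these members, with 3.18, 4.77, 4.06 and 3.42 FPKM in controls and 3.86, 4.33, 5.14 and 2.90 FPKM after KD, a log2 fold change of 0.057 and an interval of -0.34 to 0.45. In it the groups overlapped widely.

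Whether the KD effect differed between morulae and blastocysts was tested as an interaction in a fit over all libraries of both stages, where a call needs only an adjusted p below 0.05. The KD effect was called lower in blastocysts than in morulae for 7 of 72 tested members (9.72%, against 6.32% of the 12727 genes tested) and higher for 2 (2.78%, against 5.43%). Of the 7, 6 lie in the span on chromosome 2 and the other is Zfp946. Zfp946, Zfp969 and Zfp972 were near or below 1 FPKM in morulae, where little change could show. The share of members is therefore not read as a difference from all genes. The median difference was -0.082 over the tested members, with 44 below 0, but with FPKM as deposited it turned to 0.027, with 34 below 0, while the median of all genes moved from -0.0086 to 0.11, a shift of 0.12.

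Zfp931 had KD libraries at 0.2002, 0.881 and 0.395 FPKM in morulae, where controls were already low, and at 4.50, 4.49, 1.97 and 2.63 FPKM in blastocysts. The difference of the KD effect was -2.17 ± 0.52 (SE; limma, adjusted p = 0.0122). For Zfp973, KD morulae had 1.27, 1.78 and 1.02 FPKM, which overlapped the controls, and the difference of the effect was -1.61 ± 0.37 (SE; limma, adjusted p = 0.0101). Zfp971 had 4.87, 5.06 and 3.34 FPKM in KD morulae against 2.77, 2.45, 3.39 and 3.60 FPKM in control morulae, so that its values were mostly higher after KD in morulae and lower in blastocysts. Its difference was -1.57 ± 0.35 (SE; limma, adjusted p = 0.00786). For Zfp965, Zfp946, Zfp969 and Zfp972 the differences were -1.40, -1.09, -1.05 and -0.89 (limma, adjusted p = 0.0232, 0.00893, 0.0134 and 0.0115). In morulae Zfp946 had 0.247, 0.0677, 0.208 and 0.335 FPKM in controls and 0.157, 0.0908 and 0.218 FPKM after KD, Zfp972 had 0.909, 0.861, 0.456 and 1.09 FPKM and 0.497, 0.941 and 0.940 FPKM, and Zfp969 had 1.01, 0.353, 0.628 and 0.948 FPKM and 1.05, 0.914 and 0.827 FPKM. At such levels little change can show on the log2(FPKM + 1) scale, so the differences of these 3 members, and in part that of Zfp931, restate their values in blastocysts. Of the 72 tested members, 5 had no morula library at 1 FPKM or more.

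Zfp821 had 11.99, 9.33, 7.0 and 8.46 FPKM in control and 7.52, 6.08 and 6.58 FPKM in KD morulae, with overlapping groups, while all KD blastocysts were above their controls. Its difference was 0.96 ± 0.22 (SE; limma, adjusted p = 0.0110). For Zfp869, named after its values were seen, the difference was 0.80 ± 0.25 (SE; limma, adjusted p = 0.0425). This call was lost without any one of the morula control libraries 2, 7 and 8, the morula KD libraries 1 and 2, the blastocyst control libraries 1 and 6 or the blastocyst KD libraries 1 and 6, with differences between 0.65 and 0.85 (limma, adjusted p between 0.0505 and 0.125), which leaves 1 member called higher. The call of Zfp965 was lost without the morula KD library 2 (-1.22; limma, adjusted p = 0.0733) or the blastocyst control library 1 (-1.24, adjusted p = 0.0502). With no filter on low values, the calls of Zfp869, Zfp931, Zfp973 and Zfp965 were lost (limma, adjusted p = 0.0789, 0.0703, 0.0509 and 0.0926), and that of Zfp931 also at a pseudocount of 0.1 (adjusted p = 0.105). For Zfp825, Zfp938 and Zfp960, called at both stages, the differences were -0.077, -0.40 and -0.21, with intervals of -0.82 to 0.66, -1.03 to 0.22 and -0.76 to 0.34, all of which include 0.

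Members with and without a KRAB A box were found among the called. In KD blastocysts, 6 of 58 tested members with the box fell (10.3%, against 7.69% of all genes tested) and 2 rose (3.45%, against 6.06%). Of 14 tested members without a match to the box pattern, 4 fell (28.6%), namely Zfp934, Zfp959, Zfp965 and Zfp973. These 14 include the pseudogene Zfp939, which has no translated protein. Zfp965 and Zfp973 are near-identical copies and so not separate measurements. No test of the box was made. In KD morulae all 5 called members had the box, as did 48 of the 59 tested. Of the members with over 50% of windows shared, 12 were tested in blastocysts, of which 2 fell (16.7%), 1 rose (8.33%) and 11 were below 0.

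Summed levels of the other clusters were compared at each stage, without a test of the sums. The 16 members on chromosome 4 summed to 499 ± 32.6 FPKM (SD, n = 4) in control and 501 ± 56.5 FPKM (SD, n = 3) in KD 2-cell embryos, 447 ± 36.7 FPKM (SD, n = 4) in control and 403 ± 13.9 FPKM (SD, n = 3) in KD morulae, and 314 ± 26.4 FPKM (SD, n = 4) in control and 247 ± 28.1 FPKM (SD, n = 4) in KD blastocysts. All were tested in blastocysts, and none was called. In KD morulae 1 of them, Zfp990, fell. The larger cluster on chromosome 17, with 11 members, had 130.5 ± 13.2 FPKM (SD, n = 4) in control and 131 ± 11.8 FPKM (SD, n = 3) in KD 2-cell embryos, 51.5 ± 1.95 FPKM (SD, n = 4) in control and 56.5 ± 3.65 FPKM (SD, n = 3) in KD morulae, and 38.5 ± 3.53 FPKM (SD, n = 4) in control and 41.3 ± 6.64 FPKM (SD, n = 4) in KD blastocysts, with Zfp820 called higher and Zfp946 called lower in blastocysts. The smaller cluster there, with 4 members (Zfp871, Zfp811, Zfp870 and Zfp952), had 4.52 ± 0.875 FPKM (SD, n = 4) in control and 2.83 ± 0.274 FPKM (SD, n = 3) in KD 2-cell embryos, 6.14 ± 0.692 FPKM (SD, n = 4) in control and 3.21 ± 0.416 FPKM (SD, n = 3) in KD morulae, and 8.46 ± 1.62 FPKM (SD, n = 4) in control and 5.68 ± 0.315 FPKM (SD, n = 4) in KD blastocysts. Its KD sums lay below all control sums at each stage, but no member was called after KD. On chromosome 8, 6 members summed to 62.2 ± 15.8 FPKM (SD, n = 4) in control and 52.7 ± 1.74 FPKM (SD, n = 3) in KD 2-cell embryos, 36.9 ± 3.53 FPKM (SD, n = 4) in control and 22.1 ± 2.49 FPKM (SD, n = 3) in KD morulae, and 41.3 ± 3.97 FPKM (SD, n = 4) in control and 32.9 ± 5.04 FPKM (SD, n = 4) in KD blastocysts, and none was called after KD. For the 5 members on chromosome 7 the sums were 119 ± 25.9 FPKM (SD, n = 4) in control and 121 ± 34.3 FPKM (SD, n = 3) in KD 2-cell embryos, 133 ± 41.5 FPKM (SD, n = 4) in control and 93.5 ± 27.1 FPKM (SD, n = 3) in KD morulae, and 56.9 ± 9.78 FPKM (SD, n = 4) in control and 90.5 ± 43.0 FPKM (SD, n = 4) in KD blastocysts, so that the KD mean was lower in morulae and higher in blastocysts, with overlap in each case. The wide spread in KD blastocysts came with Zfp936, which had 126, 60.9, 54.2 and 43.4 FPKM there, while Zfp975 fell in KD blastocysts and Zfp977 fell in KD morulae.

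The 285 other genes named Zfp and a number were counted beside the members. In KD morulae 1 of 126 rose (0.794%, against 0.992% of all genes tested) and 5 fell (3.97%, against 2.53%), with a median log2 fold change of -0.12. In KD blastocysts 4 of 133 rose (3.01%, against 6.06%) and 7 fell (5.26%, against 7.69%), with a median of -0.032. From the 2-cell stage to the morula 28 of 156 rose (17.9%, against 32.1%) and 55 fell (35.3%, against 30.1%), and from the morula to the blastocyst 6 of 137 rose (4.38%, against 13.4%) and 19 fell (13.9%, against 12.9%). The corepressors with which KRAB zinc finger proteins act were counted from a list of 36 genes. None of 31 tested was called in KD morulae, and in KD blastocysts 1 of 33 was called (3.03%, against 6.06% of all genes tested that rose), Mta2, a subunit of the NuRD complex. Mta2 had 0.764, 2.86, 4.01 and 3.67 FPKM in control and 5.58, 3.80, 11.6 and 6.18 FPKM in KD blastocysts, a log2 fold change of 1.05 ± 0.31 (SE; limma, adjusted p = 0.0203). Without the control library 1 or the KD library 5 it was 0.74 and 0.84 (limma, adjusted p = 0.0454 and 0.0621), and with no filter the adjusted p (limma) was 0.113, so the call was lost in each case. Trim28 had 23.6, 31.3, 30.4 and 28.1 FPKM in control and 38.8, 30.9, 72.1 and 40.1 FPKM in KD blastocysts, with a log2 fold change of 0.60 ± 0.20 (SE; limma, adjusted p = 0.0308). Setdb1 was not called (log2 fold change 0.17, interval -0.24 to 0.58).

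Promoter sequences were found for 78 of the 91 members in a RefSeq table of 300 bases around gene starts, on GRCm38.p6. Motifs were searched on both strands as exact letters, and a gene was counted where any of its listed promoters held the motif. CCAAT, bound by NFY, occurred in 58 of 78 members (74.4%), against 41.1% of the 27025 genes with a promoter. CCGGAAG, of ETS factors, occurred in 15 (19.2%, against 9.93%), and CACGTG, the E box of MYC and MAX, in 10 (12.8%, against 8.09%). GGGCGG of Sp factors occurred in 37.2% (38.2% of all genes), GGATTA of Obox, Crx and Otx factors in 11.5% (8.14%) and TGACGTCA of CREB and ATF in 2.56% (2.03%). A match is a description of the letters and not a bound site.

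Promoters of Zfp931, Zfp965 and Zfp973 are shown because these members of chromosome 2 rose in control blastocysts and fell after KD. Each line gives the 250 bases before the RefSeq gene start, from 5′ to 3′ on the strand of the gene, at chr2:178078426-178078675 (minus strand) for Zfp931, chr2:175469775-175470024 (plus strand) for Zfp965 and chr2:176670272-176670521 (plus strand) for Zfp973. Capitals mark CCAAT or CCGGAAG on either strand. The lines of Zfp965 and Zfp973 hold the same bases over most of their length, shifted against each other, so they are not separate examples. That of Zfp973 ends before the place where CTTCCGG lies in Zfp965, so the lines do not show whether Zfp973 holds it.
Zfp931: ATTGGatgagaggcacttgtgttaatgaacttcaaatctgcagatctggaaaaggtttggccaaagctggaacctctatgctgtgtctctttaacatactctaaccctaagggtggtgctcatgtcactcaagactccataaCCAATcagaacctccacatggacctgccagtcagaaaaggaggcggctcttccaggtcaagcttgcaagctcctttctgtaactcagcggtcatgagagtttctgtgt
Zfp965: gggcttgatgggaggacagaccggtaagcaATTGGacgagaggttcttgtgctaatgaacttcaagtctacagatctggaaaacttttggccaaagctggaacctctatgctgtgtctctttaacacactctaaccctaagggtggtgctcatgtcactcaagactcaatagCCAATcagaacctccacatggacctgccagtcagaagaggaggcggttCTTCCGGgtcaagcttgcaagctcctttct
Zfp973: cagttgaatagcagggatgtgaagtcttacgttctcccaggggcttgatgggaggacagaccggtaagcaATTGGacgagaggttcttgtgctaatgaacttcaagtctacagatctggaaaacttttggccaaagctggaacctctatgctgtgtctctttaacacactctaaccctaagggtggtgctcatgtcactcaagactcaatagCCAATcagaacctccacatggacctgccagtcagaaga

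Promoters of Zfp942, Zfp944 and Zfp946 are shown because these neighbours on chromosome 17 fell between the 2-cell stage and the morula and each hold CACGTG, which is marked in capitals. They lie at chr17:21962465-21962714 (minus strand) for Zfp942, chr17:22361401-22361650 (minus strand) for Zfp944 and chr17:22423952-22424201 (plus strand) for Zfp946, in the same RefSeq table and over the same 250 bases before the start. The lines of Zfp942 and Zfp944 are near-identical over most of their length, so they are not separate examples of the motif. The other members with this motif were Zfp819, Zfp820, Zfp871, Zfp933, Zfp943, Zfp947 and Zfp994. Zfp948, which also fell at this step, was not among them. The motif did not go with a fall in each case, as Zfp947 of the same cluster rose at this step (log2 fold change 1.90) and Zfp820 was not called.
Zfp942: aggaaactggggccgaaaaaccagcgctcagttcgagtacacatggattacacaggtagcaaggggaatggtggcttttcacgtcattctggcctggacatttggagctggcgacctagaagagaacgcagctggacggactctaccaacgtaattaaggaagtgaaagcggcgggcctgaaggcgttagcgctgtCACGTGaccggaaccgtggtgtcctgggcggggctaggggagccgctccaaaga
Zfp944: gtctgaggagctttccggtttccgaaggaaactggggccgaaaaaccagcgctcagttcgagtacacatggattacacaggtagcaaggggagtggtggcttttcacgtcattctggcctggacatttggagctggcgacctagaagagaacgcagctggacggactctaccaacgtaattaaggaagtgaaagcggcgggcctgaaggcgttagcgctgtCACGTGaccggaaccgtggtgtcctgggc
Zfp946: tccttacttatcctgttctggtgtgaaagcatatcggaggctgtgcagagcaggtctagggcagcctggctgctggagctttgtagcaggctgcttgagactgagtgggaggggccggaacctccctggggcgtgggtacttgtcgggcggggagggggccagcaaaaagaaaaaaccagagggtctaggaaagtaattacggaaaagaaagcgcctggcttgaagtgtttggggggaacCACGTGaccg

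Not every member could be tested. The KD was tested for 49 members at all 3 stages and for 15 at none of them. These 15 were Zfp811, Zfp827, Zfp831, Zfp839, Zfp853, Zfp872, Zfp879, Zfp882, Zfp940, Zfp941, Zfp945, Zfp953, Zfp966, Zfp974 and Zfp994. The highest value among them in any library was 1.77 FPKM, for Zfp974, and for them the data give no result on the KD.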

How the data were processed

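FPKM values of 55335 genes in 22 libraries were used as the authors deposited them, after alignment with STAR and quantification with StringTie 2.1.4. Every column was assigned to a sample. Genes with at least 1 FPKM in at least 3 libraries of a comparison were kept. FPKM were divided by a median-of-ratios factor per library, 1 was added, and log2 values were fitted with limma 3.58.1 in R 4.3.3 with a mean trend. P-values were adjusted over all genes tested, and genes with an adjusted p below 0.05 and an absolute log2 fold change above 1 were called. For the interaction only the adjusted p was used. Up to 8 called members per direction and comparison, the 10 most abundant and 3 known silencers were named. Members and lists were chosen with earlier results of these data known. Read depth is unknown, as low values of 13491 single-exon genes lay on whole steps, within 0.02, in only 12.3% to 27.6% per library. Positions and transcripts came from GENCODE vM21. Python 3.11.15 with pandas 2.3.3, numpy 2.4.6, scipy 1.17.1 and matplotlib 3.10.9 was used, and the analysis was tested on simulated data.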

Additional observations from a re-analysis of the deposited data

Results flagged for a closer look

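Per-library values of named members were checked for single libraries far from the rest of their group of 4. Of 131 checks, 11 met the rule, and with groups of 4 some would do so by chance. Zfp819 was at 3.32 FPKM in 2-cell control library 4, where the group had 1.13, 1.40, 3.32 and 1.501 FPKM. Zfp944 was at 27.5 FPKM in 2-cell control library 5, beside 23.2, 22.6, 22.4 and 27.5 FPKM in its group. Zfp961 was at 48.3 FPKM in 2-cell control library 2, and Zfp985 was at 19.8 FPKM in the same library. In morula control library 8, Zfp961 was at 26.1 FPKM, Zfp965 at 4.11 FPKM, Zfp970 at 6.11 FPKM and Zfp973 at 3.05 FPKM. Of these, Zfp965, Zfp970 and Zfp973 lie on chromosome 2 and were each the highest of their group. Zfp959 was at 4.61 FPKM in morula control library 1. Zfp979 was at 76.9 FPKM in morula control library 2 and at 35.5 FPKM in blastocyst KD library 6. All of these libraries were kept.

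The KD effect differed between morulae and blastocysts by limma for 9 members. The log2 differences were -2.17 for Zfp931, -1.61 for Zfp973, -1.57 for Zfp971, -1.40 for Zfp965, -1.09 for Zfp946, -1.05 for Zfp969, -0.89 for Zfp972, 0.80 for Zfp869 and 0.96 for Zfp821. Zfp946, Zfp969 and Zfp972 were near or below 1 FPKM in morulae, as was Zfp931 in KD morulae, so that on this scale their differences mostly restate the blastocyst values. For Zfp942, the log2 fold change after KD was 0.47 in 2-cell embryos and -0.28 in blastocysts, neither called, and the difference between these stages was not tested.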

How the results depend on the processing

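Each comparison was refitted with other settings and without single libraries. In KD morulae, 4 members were called lower, and 8 with a pseudocount of 0.1, 1 with no filter and 2 with replicate numbers as a block. Zfp938 had a log2 fold change of -0.93 in the block fit, Zfp825 of -0.97 and Zfp977 of -0.67. In KD blastocysts, 2 were called higher, from 0 to 4 with single libraries left out, and 10 were called lower, with 21 at a pseudocount of 0.1 and from 7 to 12 with single libraries left out. From the morula to the blastocyst 6 rose, and 11 at a pseudocount of 0.1. For the interaction, 2 were called higher, with 1 under no filter, 4 with FPKM as deposited and from 1 to 3 with single libraries left out. There 7 were called lower, with 4 under no filter. No call changed direction.

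With single libraries left out, calls were kept in all fits for 3 of 5 members in KD morulae, 7 of 12 in KD blastocysts, 22 of 25 and 16 of 19 in development, and 7 of 9 in the interaction.

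What the replicate numbers mean is not stated in the sources used here, and the correlations do not settle whether equal numbers mark pairs. Correlations of libraries with the same number were 0.209, 0.0146 and 0.214 at the 2-cell stage, 0.181 and 0.0944 for morulae, and 0.0860, -0.111, 0.354 and 0.00149 for blastocysts. By range of the numbers, morula libraries went together, and 2-cell libraries did so in part. At the 2-cell stage, KD library 1 correlated with control libraries 1 and 2 at 0.209 and 0.205. With control libraries 4 and 5 it was at -0.237 and -0.192. For KD library 4 these values were -0.168 and -0.196, then 0.214 and 0.163. For KD library 2 they lay between -0.0211 and 0.0146. In morulae, control libraries 7 and 8 correlated with KD library 6 at 0.185 and 0.347, and control libraries 1 and 2 at -0.278 and -0.207. With KD libraries 1 and 2, control libraries 7 and 8 gave values from -0.235 to -0.0945. A fit with ranges of the numbers as a batch, chosen after the data were examined, called 1 higher and 4 lower in KD morulae and 2 higher and 10 lower in KD blastocysts.

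Limits are the 3 or 4 libraries per group, the pools of embryos, FPKM in place of counts, and the unknown treatment of controls. Copies with shared sequence can exchange reads. Low genes have fold changes that depend on the pseudocount. The cause of the differences was not tested.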
